A study of Rattus norvegicus with 6 samples.

Results

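Glutamate released at synapses is cleared and recycled mainly by astrocytes. The 10 genes described here encode transporters and an enzyme of that cycle, and transporters of other amino acid exchange. They are Slc1a1, Slc1a2, Slc1a3, Slc1a4, Slc7a10, Slc7a11, Slc3a2, Slc38a1, Slc38a3 and Glul, chosen by symbol from the 30560 genes of the count matrices, and all 10 were found. Each was measured as unique molecular identifiers (UMIs, 1 per captured RNA molecule) in single nuclei of rat brain. The 6 libraries came from 11 wild-type male Wistar rats, 12 weeks old, 48 h after surgery, and each library pooled the nuclei of 1 hemisphere from 3 or 4 rats. Sham comprised the left and right hemispheres of 4 sham-operated rats without infarction on MRI (Sham L and Sham R). In the other 7 rats a filament permanently closed the right middle cerebral artery (MCAO). MCAO ipsi comprised the infarcted right hemispheres of 3 rats with moderate (mMCAO ipsi) and 4 rats with severe infarction (sMCAO ipsi), and MCAO contra comprised the left hemispheres of the same rats (mMCAO contra, sMCAO contra). A group thus held 2 libraries, and since rats were pooled, p-values measure only the spread between pooled libraries and not between rats. In Sham that spread lies between the hemispheres of the same rats. In MCAO ipsi and MCAO contra it includes the difference in severity.

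Uptake runs through sodium-coupled carriers of the Slc1 family, which draw on the sodium and potassium gradients kept by the sodium pump. Slc1a2 (GLT-1) and Slc1a3 (GLAST) are the main astrocytic uptake carriers, and Slc1a1 (EAAC1) is their relative best known from neurons. Inside the astrocyte, glutamine synthetase, encoded by Glul, turns glutamate into glutamine. Slc38a3 (SNAT3) releases the glutamine, and Slc38a1 (SNAT1) is a glutamine carrier best known for uptake into neurons. Slc1a4 (ASCT1) and Slc7a10 (Asc-1) exchange small neutral amino acids, serine and glycine among them. Slc7a11 (xCT) is the light chain of system xc-, which imports cystine for glutathione synthesis and exports glutamate, and Slc3a2 (4F2hc, CD98) is the heavy chain that brings several such exchangers, xCT included, to the cell surface.

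Amino acid shortage and oxidative stress are known to act on several of these genes through short promoter elements, so promoter letters are shown for the genes that held such an element and for Slc7a11. RefSeq promoter windows (250 bases before to 50 bases after the annotated start, 300 bases, build GRCr8) were found for 8 of the 10 genes, 13 windows in all. Slc1a1 and Slc38a3 had no window and were not searched. Both strands were searched for the amino acid response element TGATGNAA and the antioxidant response element TGACNNNGC. The first was found in 1332 of 33465 windows of all genes (3.98%), and among the 8 genes in Slc1a4 and Slc38a1. The second was found in 4038 windows (12.1%), and among the 8 genes only in the second window of Slc3a2. None of the 8 genes held both motifs. The windows follow 5′ to 3′ on the gene's own strand, with the match in capitals, from chr14:98761513-98761812 (Slc1a4), chr7:129681352-129681651 (Slc38a1), chr1:215039621-215039920 (Slc3a2) and chr2:136668215-136668514 (Slc7a11), all on the minus strand. The matches in Slc1a4 and Slc3a2 lie on the reverse strand of the window.
Slc1a4: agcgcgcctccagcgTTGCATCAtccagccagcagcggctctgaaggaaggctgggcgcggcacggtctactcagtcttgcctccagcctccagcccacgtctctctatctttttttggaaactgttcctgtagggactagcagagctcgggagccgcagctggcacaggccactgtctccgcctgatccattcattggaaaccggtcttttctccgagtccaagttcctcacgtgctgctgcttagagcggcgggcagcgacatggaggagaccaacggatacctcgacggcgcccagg
Slc38a1: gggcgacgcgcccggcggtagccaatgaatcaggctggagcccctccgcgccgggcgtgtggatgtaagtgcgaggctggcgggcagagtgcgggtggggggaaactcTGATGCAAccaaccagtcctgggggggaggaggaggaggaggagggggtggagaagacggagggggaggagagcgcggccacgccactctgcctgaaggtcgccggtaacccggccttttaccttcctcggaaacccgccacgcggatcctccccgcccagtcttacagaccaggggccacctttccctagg
Slc3a2: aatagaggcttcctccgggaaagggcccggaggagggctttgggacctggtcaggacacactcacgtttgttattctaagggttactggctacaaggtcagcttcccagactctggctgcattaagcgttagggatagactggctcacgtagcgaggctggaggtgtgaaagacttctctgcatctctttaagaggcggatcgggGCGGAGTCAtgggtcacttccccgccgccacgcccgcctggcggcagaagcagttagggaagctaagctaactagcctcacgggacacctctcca
Slc7a11: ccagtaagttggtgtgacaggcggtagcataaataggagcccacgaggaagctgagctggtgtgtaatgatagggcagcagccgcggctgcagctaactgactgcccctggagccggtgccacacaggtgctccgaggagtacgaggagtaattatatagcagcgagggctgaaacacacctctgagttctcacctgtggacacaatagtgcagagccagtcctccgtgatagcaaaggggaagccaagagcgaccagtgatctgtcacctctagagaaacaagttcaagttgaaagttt
A match is a description of letters, not evidence of binding, and the Slc7a11 window held neither motif.

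The libraries held 33012945 to 52513380 UMIs in 8774 to 14508 nuclei, of which 8232 to 13766 were used. Nuclei were clustered without the 10 genes and named from marker genes, none of which is among the 10. Astrocyte-like nuclei numbered 238 and 194 in Sham L and R, 347 and 244 in moderate and severe MCAO contra, and 438 and 557 in moderate and severe MCAO ipsi, and paired values below keep that order. UMIs of all 11 astrocyte markers were detected in them in every library, and their summed level was 14830 and 11730 CPM (UMIs per 1000000 UMIs summed over the same nuclei) in the ipsi libraries against 15950 to 21350 in the other 4. Without Gpc5 and Slc4a4 the other 9 markers went the other way, at 3002 and 3238 CPM in the ipsi libraries against 1905 to 2935 in the other 4. Clusters led by homeostatic markers (Gpc5, Kirrel3, Cdh10, Trpm3) or by reactive markers (Gfap, Vim, Osmr, Cd44, Cp, A2m, Cd109) were kept apart. Reactive nuclei made up 4.62% and 5.67% of astrocyte-like nuclei in Sham, 12.1% and 16.8% in MCAO contra, 59.8% in moderate and 82.0% in severe MCAO ipsi. When each nucleus was gated by its own marker UMIs instead, 41 of 439 were reactive in mMCAO ipsi and 182 of 536 in sMCAO ipsi. The reactive share thus depended on how the nuclei were split. Free RNA in the droplets, estimated from neuron markers, was 33.6% and 30.2% of the UMIs of astrocyte-like nuclei in Sham, 12.6% and 18.9% in MCAO contra, and 8.5% and 4.5% in MCAO ipsi, so it moved with the groups. Pairs of libraries shared 118 to 281 cell barcodes, 1.345% to 2.177% of the smaller library.

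Slc1a2, Slc1a4, Slc7a10 and Slc38a3 were a smaller share of all UMIs in astrocyte-like nuclei of MCAO ipsi than in those of Sham. Slc3a2 was a larger share. These 5 of 10 genes passed edgeR's quasi-likelihood test with an adjusted p under 0.05 and a log2 fold change of at least 0.6 in size, against 17.9% of the 6098 genes tested (9.02% lower and 8.9% higher). The same 5 passed against MCAO contra, where 14.5% of all genes did (6.79% lower and 7.71% higher). The median log2 fold change of the 10 genes was 0.14 against Sham, beside 0.02 over all genes tested. Astrocyte-like nuclei summed to 187323 and 127034 UMIs in Sham, 356684 and 219326 in MCAO contra, and 616002 and 1455978 in MCAO ipsi. With the nuclei counted above, depth per nucleus was thus higher in MCAO ipsi. UMIs of a gene per nucleus are not given here. Between MCAO contra and Sham, 0 of 10 passed by edgeR and by DESeq2, 0 had an unadjusted p under 0.05, and 0% of all genes passed.

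Slc1a2, the main uptake carrier, was at 8109 and 7219 CPM in Sham, 9510 and 8503 in MCAO contra, and 5407 and 3756 in mMCAO ipsi and sMCAO ipsi. Both ipsi libraries lay below the other 4, and the severe one was the lowest. The log2 fold change was −0.81 ± 0.21 (SE, 2 libraries a group; edgeR adjusted p = 0.0169) against Sham and −1.03 ± 0.21 (edgeR adjusted p = 0.00590) against MCAO contra. Slc1a3, the other astrocytic uptake carrier, was at 1516 and 1480 CPM in Sham, 1719 and 1856 in MCAO contra, 1469 in moderate and 1951 in severe MCAO ipsi. Its ipsi libraries spanned the whole range of the other 4, and the difference from Sham, 0.12 ± 0.18 on the log2 scale, did not pass (edgeR adjusted p = 0.737). Slc1a1 was sparse in astrocyte-like nuclei, with 0 and 4 UMIs in Sham, 9 and 9 in MCAO contra and 22 and 72 in MCAO ipsi (35.7 and 49.5 CPM), and its log2 fold change of 1.68 ± 0.78 against Sham did not pass (edgeR adjusted p = 0.170).

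The serine and glycine exchangers were both lower in MCAO ipsi. Slc7a10 was at 155 and 181 CPM in Sham, 241 and 182 in MCAO contra, 66.6 in moderate and 81.7 in severe MCAO ipsi. It had the largest fall of the 10 genes against MCAO contra, −1.57 ± 0.23 (edgeR adjusted p = 0.00095), and fell by 1.21 ± 0.26 on the log2 scale against Sham (edgeR adjusted p = 0.00668). Slc1a4 was at 107 and 189 CPM in Sham, 146 and 128 in MCAO contra, 64.9 in moderate and 63.9 in severe MCAO ipsi. The ipsi libraries of both genes lay below all others, and the Slc1a4 log2 fold change was −1.22 ± 0.30 against Sham (edgeR adjusted p = 0.0140) and −1.16 ± 0.27 against MCAO contra (edgeR adjusted p = 0.012).

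The chains of system xc- differed in what passed the test. Slc3a2, the heavy chain, was at 58.7 and 31.5 CPM in Sham, 95.3 and 63.8 in MCAO contra, 140 in moderate and 196 in severe MCAO ipsi. Its Sham levels rest on few UMIs, since astrocyte-like nuclei held 187323 and 127034 UMIs of all genes in Sham L and Sham R. Both ipsi libraries lay above the other 4, with a log2 fold change of 1.77 ± 0.37 against Sham (edgeR adjusted p = 0.00529) and 0.99 ± 0.28 against MCAO contra (edgeR adjusted p = 0.0352). Slc7a11, the light chain, was at 198 and 118 CPM in Sham, 210 and 205 in MCAO contra, 260 in moderate and 267 in severe MCAO ipsi. The order of the groups was the same, but the log2 fold change of 0.62 ± 0.24 against Sham did not pass over astrocyte-like nuclei as a whole (edgeR adjusted p = 0.0927).

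Of the glutamine genes only Slc38a3, the release carrier, passed the test. It was at 171 and 181 CPM in Sham, 157 and 192 in MCAO contra, 79.5 in moderate and 80.4 in severe MCAO ipsi, and fell by 1.20 ± 0.24 on the log2 scale against Sham (edgeR adjusted p = 0.00444) and by 1.16 ± 0.22 against MCAO contra (edgeR adjusted p = 0.00399). Glul, glutamine synthetase, was at 299 and 283 CPM in Sham, 306 and 315 in MCAO contra, 279 in moderate and 403 in severe MCAO ipsi, and its ipsi libraries lay on either side of the others (log2 fold change 0.17 ± 0.22, edgeR adjusted p = 0.683). Slc38a1 was at 90.8 and 70.8 CPM in Sham, 61.7 and 114 in MCAO contra, 109 in moderate and 190 in severe MCAO ipsi, and only the severe ipsi library stood above the rest (0.82 ± 0.38, edgeR adjusted p = 0.167).

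**Figure D1:**
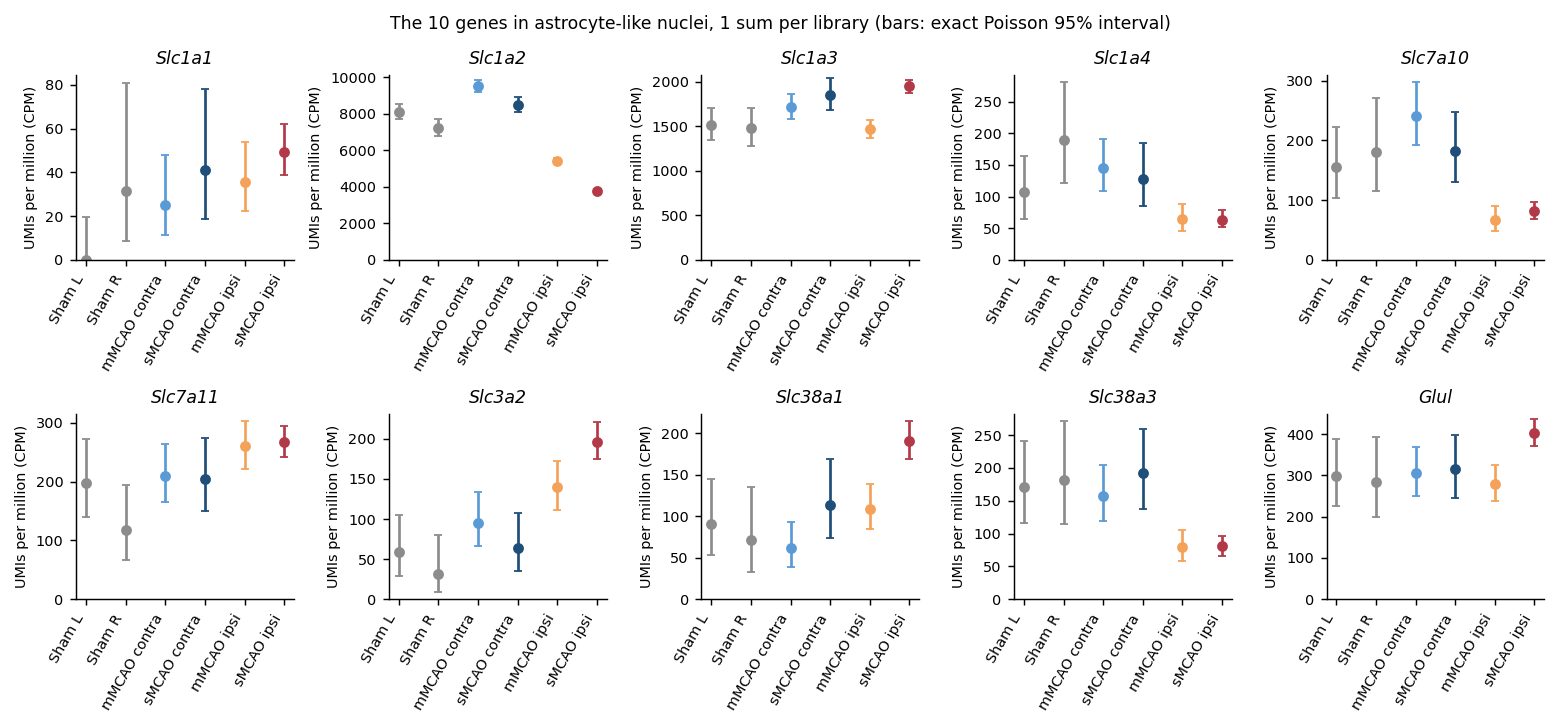
Level of each of the 10 genes in astrocyte-like nuclei, 1 panel a gene with its own scale. Each point is the sum over the nuclei of 1 library in CPM and bars are exact Poisson 95% intervals, which cover counting error only. The 2 ipsi points lie below all others for Slc1a2, Slc1a4, Slc7a10 and Slc38a3 and above all others for Slc3a2 and Slc7a11.

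The library left out decided some of these calls. Each such refit left a group without a replicate. Here and below, the share of all genes passing in such a refit is not given. Its counts are thus not read as a result about these genes. Slc1a1 had no UMI in Sham L, the Sham library left when Sham R was dropped. Without Sham L only Slc3a2 and Slc1a4 passed against Sham, and without Sham R only Slc1a1 and Slc38a3, while 8 genes passed without mMCAO ipsi, with Slc1a1, Slc38a1 and Slc7a11 added. Slc1a2 alone of the 5 was lost without mMCAO contra, without sMCAO contra and without sMCAO ipsi, which left 4 each time. Against MCAO contra only Slc38a3 and Slc7a10 passed without mMCAO contra, only Slc7a10 without sMCAO contra, 6 genes without mMCAO ipsi and 4 without sMCAO ipsi. With DESeq2 the calls of Slc1a4 (DESeq2 adjusted p = 0.0722) and Slc3a2 (DESeq2 adjusted p = 0.225) against MCAO contra were lost and the other 3 passed. The direction of the 5 changes held in every fit, with log2 fold changes against Sham between −1.18 and −0.21 for Slc1a2, between −1.58 and −0.83 for Slc1a4, between −1.60 and −0.61 for Slc7a10, between −1.59 and −0.84 for Slc38a3 and between 1.43 and 2.40 for Slc3a2. In the same nuclei the summed neuron markers (5 genes) were at 4132 and 3834 CPM in Sham, 1517 and 2056 in MCAO contra and 1411 and 1021 in MCAO ipsi. With free RNA subtracted, as estimated from neuron markers, the counts of calls in astrocyte-like nuclei stayed within 1.5 times. The part of neuron RNA in the results was not tested otherwise.

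Within homeostatic astrocyte-like nuclei alone, Slc7a11 was the 1 gene of the 9 tested that passed, and it was higher in MCAO ipsi. Against Sham 6.54% of all genes passed (2.33% higher) and against MCAO contra 1.24% did (0.645% higher). Homeostatic nuclei numbered 227, 183, 305 and 203 in Sham and MCAO contra and 176 and 100 in mMCAO ipsi and sMCAO ipsi. Slc7a11 was at 184 CPM in Sham L (exact Poisson 95% interval 127 to 258, 33 UMIs), 127 in Sham R (71.2 to 210, 15 UMIs), 205 in mMCAO contra and 172 in sMCAO contra, against 425 in mMCAO ipsi (343 to 520, 94 UMIs) and 415 in sMCAO ipsi (332 to 514, 85 UMIs). The ipsi intervals did not overlap those of the other libraries, and the log2 fold change was 1.41 ± 0.26 against Sham (edgeR adjusted p = 0.00340) and 1.16 ± 0.23 against MCAO contra (edgeR adjusted p = 0.0289). Of the 50 nuclei of a small homeostatic cluster (g36) 45 came from sMCAO ipsi, and in the larger homeostatic cluster (g5) alone Slc7a11 was at 425 CPM in mMCAO ipsi and 590 in sMCAO ipsi. With free RNA subtracted the log2 fold change was 1.09 against Sham (edgeR adjusted p = 0.0631) and 1.03 against MCAO contra (edgeR adjusted p = 0.118), so neither passed. The call against MCAO contra was also lost without mMCAO contra (edgeR adjusted p = 0.186) or sMCAO contra (0.193), whereas 3 genes passed against Sham without mMCAO ipsi, Glul and Slc1a3 joining Slc7a11.

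The genes that fell over astrocyte-like nuclei as a whole did not pass within homeostatic ones. Homeostatic clusters were picked by markers such as Gpc5, which followed Slc1a2 at Pearson's r = 0.937 over sums of class and library. The level of Slc1a2 and of genes like it in these nuclei is thus in part set by that choice. Slc1a2 was at 8421 and 7747 CPM in homeostatic nuclei of Sham, 10399 and 9564 in MCAO contra, 8240 in moderate and 8497 in severe MCAO ipsi, a log2 fold change of 0.07 ± 0.12 against Sham (edgeR adjusted p = 0.828). The ipsi libraries lay among the others. Slc7a10 was at 162 and 187 CPM in Sham, 268 and 199 in MCAO contra, 122 in moderate and 264 in severe MCAO ipsi (0.17, edgeR adjusted p = 0.865). Slc38a3 was lower in both ipsi libraries, at 127 and 147 CPM against 173 to 221, without passing (−0.40, edgeR adjusted p = 0.520). Glul was at 297 to 350 CPM in 5 libraries and at 557 in sMCAO ipsi (0.54, edgeR adjusted p = 0.315). The astrocyte markers summed to 16890 to 22760 CPM in these nuclei, with 20150 and 20470 in the ipsi libraries. Between MCAO contra and Sham 0 of the 9 passed by edgeR and by DESeq2, with 1 at an unadjusted p under 0.05.

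Reactive and homeostatic astrocyte-like nuclei of the same ipsi library are set side by side next as a description without a test, since the clusters were made from the same nuclei. The 10 genes were kept out of the clustering, but genes that vary with them were not, and Slc1a2 and Slc1a3 rank among the leading genes of homeostatic cluster g5. The 95% interval of the reactive over homeostatic ratio lay wholly below 1 for 5 genes in mMCAO ipsi (6.71% of all genes with enough UMIs) and for 7 in sMCAO ipsi (7.46%), and wholly above 1 for 1 and 3 genes (11.2% and 13%). Slc7a10 had the lowest ratios, 0.291 (0.141 to 0.574) in mMCAO ipsi and 0.197 (0.135 to 0.288) in sMCAO ipsi. Slc1a2 was at 3820 and 2981 CPM in reactive nuclei, ratios of 0.464 (0.433 to 0.497) and 0.351 (0.331 to 0.372). The other uptake carrier, Slc1a3, was nearer to 1, at 0.704 (0.617 to 0.805) and 0.802 (0.727 to 0.887).

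Over both reactive clusters together, Slc7a11 was also lower in reactive than in homeostatic nuclei. Its ratios were 0.393 (0.283 to 0.545) in mMCAO ipsi and 0.585 (0.459 to 0.753) in sMCAO ipsi, and Slc38a3 was at 0.420 (0.227 to 0.767) and 0.474 (0.310 to 0.744). Slc38a1, the glutamine carrier best known from neurons, stood on the other side, at 2.33 (1.25 to 4.65) and 5.50 (2.75 to 12.9). Slc3a2 was at 1.63 (0.991 to 2.78) and 1.79 (1.17 to 2.84). In these ratios over both reactive clusters, the light chain of system xc- lay below 1 in both libraries. The heavy chain lay above 1, its interval in mMCAO ipsi reaching 1. With nuclei gated one by one on their own markers instead of clustered, only the low Slc1a2 and the high Slc38a1 ratios kept intervals off 1 in both libraries.

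**Figure D2:**
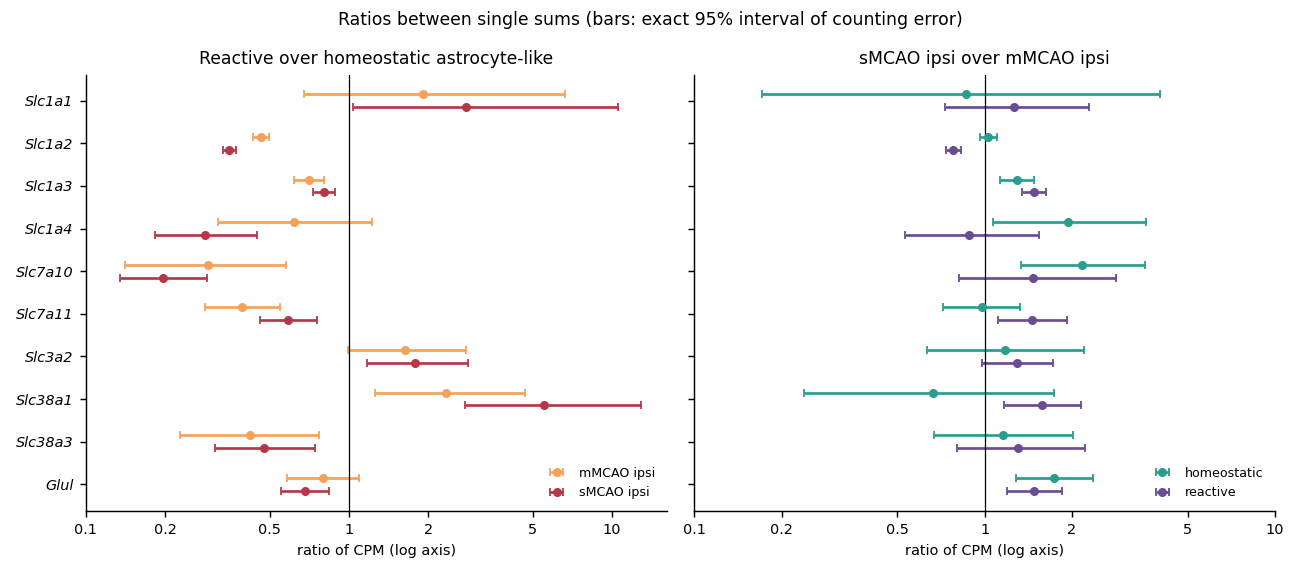
Ratios of summed CPM on a log axis, with exact 95% intervals of counting error. Left, reactive over homeostatic astrocyte-like nuclei in each ipsi library, with Slc1a2, Slc1a3, Slc7a10, Slc7a11 and Slc38a3 below 1 and Slc38a1 above 1 in both. Right, sMCAO ipsi over mMCAO ipsi in homeostatic and in reactive nuclei, where Slc1a3 and Glul lie above 1 in both.

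The reactive nuclei fell into 2 clusters. Cluster g13 (Gfap, A2m, Aqp4, Tnc, Chi3l1) and cluster g15 (Gfap, Ccl2, Cd44) held 429 and 395 nuclei, and g15 came almost wholly from the ipsi libraries (157 from mMCAO ipsi and 228 from sMCAO ipsi). Slc7a11 was at 256 and 462 CPM in g13 of mMCAO ipsi and sMCAO ipsi, and at 135 and 126 in g15. Slc38a1 was likewise higher in g13, at 284 and 324 CPM against 83.0 and 157. Slc1a2 lay the other way, at 2801 and 2308 CPM in g13 against 4192 and 3340 in g15, and Slc7a10 at 8.99 and 16.1 against 45.1 and 70.8. Slc1a3 ranks among the leading genes of g15. For Slc7a11 in sMCAO ipsi, g13 lay above the level of all homeostatic nuclei together, though below that of homeostatic cluster g5. In mMCAO ipsi it lay below both.

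Severity was represented by 1 library each, so the comparison of sMCAO ipsi with mMCAO ipsi has no replicate check. In astrocyte-like nuclei Slc1a2 was at 0.695 (0.665 to 0.725) of its moderate level, and Slc1a3 at 1.33 (1.23 to 1.43), Slc3a2 at 1.41 (1.10 to 1.81), Slc38a1 at 1.75 (1.34 to 2.32) and Glul at 1.44 (1.22 to 1.72). These 1 lower and 4 higher genes stand beside 6.49% of all genes with an interval below 1 and 9.1% with one above. Slc7a11 had a ratio of 1.03 (0.854 to 1.24). Beside the larger reactive share in sMCAO ipsi, the Slc1a2 ratio was 1.03 (0.965 to 1.10) within homeostatic nuclei and 0.780 (0.735 to 0.829) within reactive nuclei. Intervals above 1 were found for Slc1a3, Slc1a4, Slc7a10 and Glul within homeostatic nuclei (5.8% of all genes; 5.69% below 1), and for Slc1a3, Slc7a11, Slc38a1 and Glul within reactive nuclei (5.87%; 5.34% below 1, Slc1a2 among them). Glul was higher in the severe library in both, at 1.74 (1.28 to 2.37) and 1.48 (1.19 to 1.85). The homeostatic ratios compare different mixes of clusters, since the small homeostatic cluster g36 came mostly from sMCAO ipsi. The part of this mix in the ratios was not tested. Sham R over Sham L, both without infarct, gave 0.890 (0.819 to 0.967) for Slc1a2, and the intervals of the other genes included 1.

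Other genes of the same systems, listed by family and pathway, were read in the same astrocyte-like fits. Of all genes tested there, 17.9% passed against Sham (9.02% lower and 8.9% higher). Against MCAO contra 14.5% did (6.79% lower and 7.71% higher). The counts of listed genes here and in the next paragraph stand beside these shares and are not read as results about a pathway. The sodium pump chain Atp1b2 rose against Sham (1.27, edgeR adjusted p = 0.00233), and the potassium channel Kcnj10 fell against MCAO contra (−0.92, edgeR adjusted p = 0.0321). Of 3 tested GABA and glycine carriers of the 9 listed, Slc6a11 fell in both comparisons (−0.82, edgeR adjusted p = 0.0237, and −1.49, edgeR adjusted p = 0.000561). Of 11 tested genes of glutamate metabolism out of 15, 0 rose. Abat, which breaks down GABA, fell in both comparisons (−0.97, edgeR adjusted p = 0.0125, and −1.02, edgeR adjusted p = 0.00653), and Slc25a18, a mitochondrial glutamate carrier, fell against MCAO contra (−0.79, edgeR adjusted p = 0.0434). The median log2 fold change of these 11 was −0.32 and −0.40.

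Among carriers, 1 of 2 tested Slc7 genes out of 11 rose, the light chain Slc7a8 (1.59, edgeR adjusted p = 0.0297, and 1.58, edgeR adjusted p = 0.0152), a partner of Slc3a2. Of 4 tested Slc38 genes out of 9, Slc38a10 fell against MCAO contra (−1.15, edgeR adjusted p = 0.0428). Of 4 tested cystine and glutathione genes out of 12, Nfe2l2, which encodes the oxidative stress factor NRF2, rose against MCAO contra (0.97, edgeR adjusted p = 0.0446). Of 3 tested serine and glycine genes out of 7, 0 passed in either comparison by edgeR, and the 3 other Slc1 genes were too sparse to test. Within homeostatic nuclei Atp1b2 rose against Sham (1.93, edgeR adjusted p = 0.000864).

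**Figure D3:**
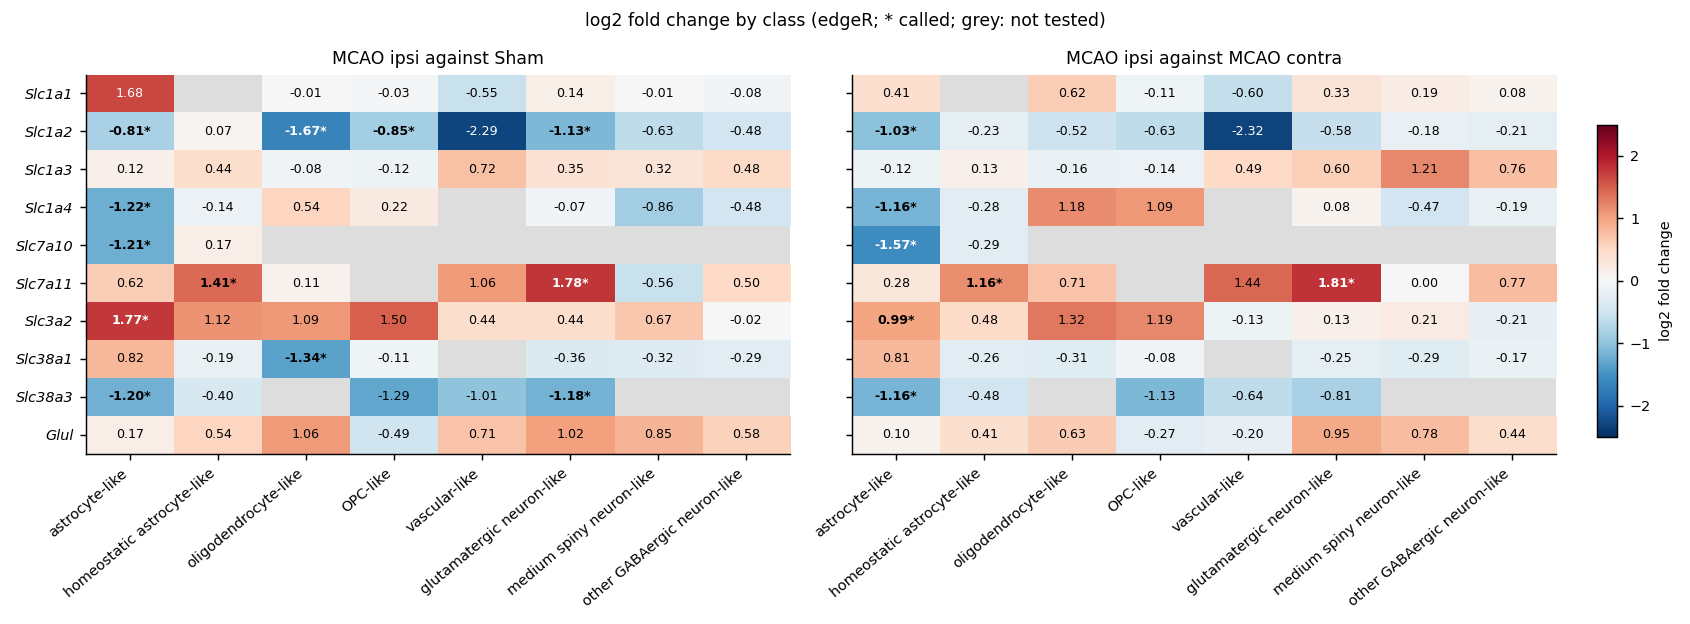
log2 fold change of each gene by class (edgeR), MCAO ipsi against Sham on the left and against MCAO contra on the right. Asterisks mark an adjusted p under 0.05 with a change of at least 0.6, and grey cells were not tested. The asterisks fall in 5 cells of the astrocyte-like column in both panels, on Slc7a11 for homeostatic astrocyte-like nuclei and glutamatergic neuron-like nuclei in both panels, and on Slc1a2, Slc38a1 or Slc38a3 in oligodendrocyte-like, OPC-like and glutamatergic columns on the left only.

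In the other glia the genes were read at their own levels. Glul, which oligodendrocytes are also known to express, was at 230 and 188 CPM in Sham, 239 and 335 in MCAO contra, 307 in moderate and 605 in severe MCAO ipsi of oligodendrocyte-like nuclei. The severe ipsi library stood above the rest, and the log2 fold change of 1.06 ± 0.31 against Sham did not pass (edgeR adjusted p = 0.0739). Slc1a2 was low there, at 39.2 and 62.5 CPM in Sham, 18.4 and 24.2 in MCAO contra and 20.2 and 11.9 in MCAO ipsi, and Slc38a1 was at 38.1 and 43.0 in Sham and 15 to 22.1 in the other 4. Both fell against Sham, by 1.67 ± 0.39 (edgeR adjusted p = 0.0394) and 1.34 ± 0.32 (edgeR adjusted p = 0.0430) on the log2 scale, 2 of 8 genes tested beside 7.29% of all genes (5.18% lower). MCAO contra lay as low as MCAO ipsi, and against MCAO contra 0 of 8 passed (0.207% of all genes; 2 at an unadjusted p under 0.05, 0 by DESeq2). Free RNA was estimated at 32.1% and 30.6% of the UMIs of these nuclei in Sham and at 4.8% to 16.0% in the other 4 libraries, and with it subtracted 0 of 8 passed against Sham. The calls were also lost without any 1 of Sham L, Sham R, mMCAO contra, sMCAO contra and sMCAO ipsi, with 0 left each time, whereas 4 genes passed without mMCAO ipsi.

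In OPC-like nuclei (oligodendrocyte precursors) Slc1a1 was at 288 to 347 CPM in every library, with no separation of the groups. Slc1a2 was at 209 and 272 CPM in Sham, 152 and 262 in MCAO contra and 157 and 125 in MCAO ipsi, so MCAO contra overlapped both groups. It fell against Sham (−0.85 ± 0.25, edgeR adjusted p = 0.0303), 1 of 8 genes tested beside 14.9% of all genes (7.17% lower), and 0 of 8 passed without Sham R, without sMCAO ipsi, with DESeq2 or with gated nuclei, where the value was 0.25. Against MCAO contra 0 of 8 passed (14.6% of all genes; 2 at an unadjusted p under 0.05, 0 by DESeq2). Observed Slc1a2 was 0.897 to 1.92 times the amount that astrocyte RNA, set from 9 astrocyte markers in the same nuclei, would bring.

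In vascular-like nuclei 0 of 7 genes passed in either comparison (3.69% of all genes against Sham and 0.671% against MCAO contra; 2 and 2 at an unadjusted p under 0.05, 0 by DESeq2). Slc3a2 was at 117 to 205 CPM in them in all 6 libraries. Myeloid-like nuclei numbered 19 and 13 in Sham, under the limit of 20 a library, and were not fitted. Ependymal-like nuclei, at 20 or more in every library, were left out of the fits as well. Slc1a3 was at 373 and 667 CPM in myeloid-like nuclei of MCAO contra and at 471 and 491 in those of MCAO ipsi. Slc38a1 was at 232 to 669 CPM in ependymal-like nuclei, above its level in astrocyte-like, OPC-like, oligodendrocyte-like, vascular-like and neuron-like nuclei of each library. Ependymal-like nuclei numbered only 28 and 20 in Sham, with free RNA estimated at 53.2% and 72.4% of their UMIs.

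Slc7a11 rose in glutamatergic neuron-like nuclei of MCAO ipsi. It was at 37.7 and 41.5 CPM in Sham, 44.4 and 39.0 in MCAO contra, and 122 and 169 in MCAO ipsi. The 4 libraries without infarct lay within a narrow range, and both ipsi libraries stood far above it. These nuclei numbered 3382 to 5761 in 5 libraries and 1166 in sMCAO ipsi. The log2 fold change was 1.78 ± 0.13 against Sham (edgeR adjusted p = 0.00137) and 1.81 ± 0.13 against MCAO contra (edgeR adjusted p = 0.00138). Against Sham 3 of 9 genes tested passed, 1 higher and 2 lower, beside 6.74% of all genes (4.11% higher and 2.63% lower), and against MCAO contra Slc7a11 alone passed, beside 4.15% (2.15% higher). With free RNA subtracted the change was 1.65 against Sham (edgeR adjusted p = 0.00395). Without Sham L it was 1.73 (edgeR adjusted p = 0.0528), and 0 of the 9 genes then passed against Sham. Without mMCAO ipsi 5 genes passed against Sham and 3 against MCAO contra.

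The share of glutamatergic neuron-like nuclei with a Slc7a11 UMI was 7.47% and 6.60% in Sham, 8.32% and 7.63% in MCAO contra, 20.6% in moderate and 33.2% in severe MCAO ipsi. Median depth was 8584 UMIs in sMCAO ipsi against 2855 to 4771 in the others, so nuclei were also thinned to 1000 UMIs each, which kept 1164 of 1166 nuclei in sMCAO ipsi and 3375 to 5727 in the others. The shares were then 2.65% and 3.27% in Sham, 3.38% and 2.55% in MCAO contra, 7.82% in moderate and 9.97% in severe MCAO ipsi. Medium spiny neuron-like nuclei of the same libraries, thinned alike from median depths of 1915 to 5763 UMIs, had shares of 0.0740% to 0.591%, with 0.192% and 0.216% in the ipsi libraries.

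Among the 8 glutamatergic clusters with at least 20 nuclei in every library, both ipsi libraries lay above the other 4 in Slc7a11 in 6 clusters. The highest levels in the ipsi libraries were in cluster n6, led by Rspo2, at 76.0 to 89.9 CPM in the 4 libraries without infarct against 287 in moderate and 355 in severe MCAO ipsi. In n5 (Il1rapl2), they were 82.7 to 129 CPM against 228 and 257. In n4 (Glis3, Cux2) the values were 17.5 to 41.2 CPM against 117 and 220, and in n13 (Pkhd1) 8.0 to 11 against 53.5 and 152. In n7 (Abi3bp) and n3 (Zfpm2) the moderate library was the higher, at 65.4 and 48.3 CPM against 20.4 and 26.6 in the severe one. The exceptions were n17 (Palldl1) and n21 (Adamts18), in which the ipsi libraries, at 7.55 to 15.5 CPM, lay among the others. These cluster values are a description.

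**Figure D4:**
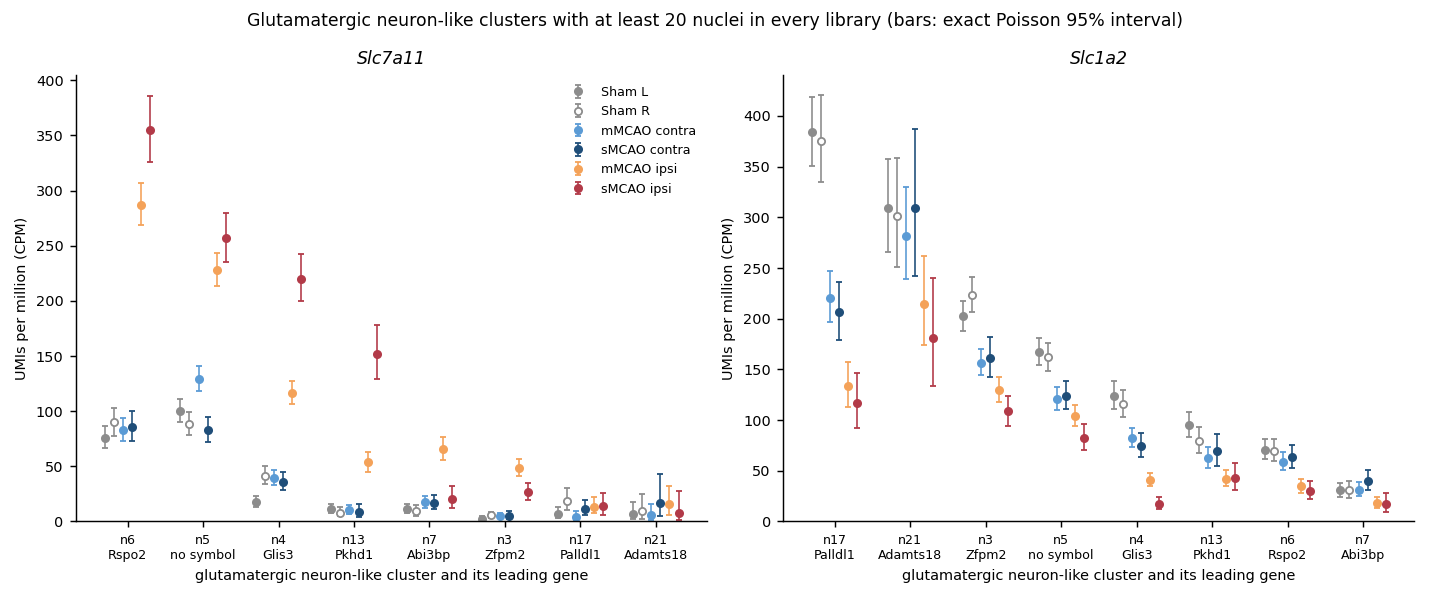
Slc7a11 (left) and Slc1a2 (right) in CPM by glutamatergic neuron-like cluster, named by number and leading gene (no symbol where that gene has none), 1 point a library with exact Poisson 95% intervals of counting error. Slc7a11 reaches 287 and 355 CPM in the ipsi libraries of n6 and stays at or below 18.4 CPM in every library of n17 and n21. Slc1a2 is lower in both ipsi libraries than in the other 4 in all 8 clusters.

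Slc1a2 fell in glutamatergic neuron-like nuclei as well, and so did Slc38a3. Slc1a2 was at 144 and 144 CPM in Sham, 106 and 106 in MCAO contra, 75.6 in moderate and 63.3 in severe MCAO ipsi, with MCAO contra between the other groups. The log2 fold change was −1.13 ± 0.10 against Sham (edgeR adjusted p = 0.00186), and −0.58 against MCAO contra, under the fold limit. Free RNA in these nuclei, estimated from glia markers, also differed between the groups. It was 30.2% and 42.3% of UMIs in Sham, 18.9% and 21.4% in MCAO contra, and 22.9% and 11.1% in MCAO ipsi. Observed Slc1a2 was 0.485 to 0.763 times the amount that astrocyte RNA, set from 9 astrocyte markers, would bring in 5 of the libraries and 1.16 times in sMCAO ipsi. For Slc7a11 that multiple was 6.84 to 12.9 in the libraries without infarct, 25.7 in moderate and 43.6 in severe MCAO ipsi. Slc38a3 was at 2.28 CPM or less in every library (−1.18 ± 0.29 against Sham, edgeR adjusted p = 0.0358), and by DESeq2 it did not pass while Glul did. The neuronal uptake carrier Slc1a1 was at 86.7 to 94.5 CPM in the libraries without infarct, 104 in moderate and 117 in severe MCAO ipsi, and its change of 0.33 against MCAO contra was under the fold limit (edgeR adjusted p = 0.0286). Slc38a1 was at 103 to 107 CPM in those 4 libraries and at 90.9 and 82.3 in the ipsi ones (−0.36 against Sham, edgeR adjusted p = 0.0290), again under that limit.

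In inhibitory neurons Slc7a11 was lower throughout. It was at 2.32 to 4.26 CPM in medium spiny neuron-like nuclei, with 2.86 and 2.58 in the ipsi libraries, and at 4.31 to 15.6 in other GABAergic neuron-like nuclei, where mMCAO ipsi was the highest and sMCAO ipsi was at 7.13. In medium spiny neuron-like nuclei 0 of 8 genes passed against Sham or MCAO contra (5.06% and 3.81% of all genes; 5 and 2 at an unadjusted p under 0.05, 0 by DESeq2). In other GABAergic neuron-like nuclei 0 of 8 passed (1.35% and 0.0368% of all genes; 3 and 3 at an unadjusted p under 0.05, 0 by DESeq2), Slc1a2 with a change of −0.48 against Sham lying under the fold limit. Slc1a1 was at 84.9 to 105 CPM in medium spiny neuron-like nuclei and Slc38a1 at 99.0 to 128. Between MCAO contra and Sham, 0 genes passed by edgeR or DESeq2 in OPC-like, oligodendrocyte-like, vascular-like, glutamatergic, medium spiny and other GABAergic nuclei, with 0, 3, 1, 3, 2 and 1 at an unadjusted p under 0.05. Of all genes 0% passed in the first 3 classes, 0.0269% in the glutamatergic class, 0.224% in the medium spiny and 0.0811% in the last. In oligodendrocyte-like nuclei 1 gene (Slc1a2) passed without mMCAO ipsi and 2 (Slc1a2 and Slc38a1, both lower in MCAO contra) without sMCAO ipsi.

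Whether a change differed between classes was tested by an interaction of class and group over both classes in 1 fit. Against glutamatergic neuron-like nuclei 4 genes passed, 2 in each direction (8.39% of all genes; 4.3% higher and 4.09% lower in astrocyte-like nuclei). The astrocyte-like change from Sham to MCAO ipsi was higher for Slc3a2, by 1.38 ± 0.41 on the log2 scale (edgeR adjusted p = 0.0118), and for Slc38a1, by 1.28 ± 0.32 (edgeR adjusted p = 0.00142). It was lower for Slc7a11, −1.08 ± 0.28 (edgeR adjusted p = 0.00273), and for Slc1a4, −1.08 ± 0.38 (edgeR adjusted p = 0.0481). Astrocyte-like nuclei include reactive ones, whose share differed between the groups. Within homeostatic nuclei the log2 fold change against Sham was 1.41 for Slc7a11, −0.14 for Slc1a4, 1.12 for Slc3a2 and −0.19 for Slc38a1. No interaction was tested for homeostatic nuclei. The median difference over all genes was 0.21 with TMM scaling and 0.06 with RLE scaling. Relative to it the Slc7a11 and Slc1a4 differences were larger and those of Slc3a2 and Slc38a1 smaller. Of all calls 51.3% were higher in astrocyte-like nuclei with TMM, 39.5% with RLE and 71.5% with free RNA subtracted. From 1 gene without sMCAO ipsi to 6 without mMCAO ipsi passed, with 2 without Sham R. Against oligodendrocyte-like nuclei Slc38a1 alone passed (2.24 ± 0.48, edgeR adjusted p = 0.00198, beside 5.2% of all genes, 3.51% higher in astrocyte-like nuclei), and 0 genes did without Sham L, Sham R or sMCAO ipsi or with free RNA subtracted, and 3 without mMCAO ipsi. Against OPC-like nuclei 0 of the genes passed (4.96% of all genes; 3 at an unadjusted p under 0.05), with 1 without Sham R.

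Slc7a11 had its highest level outside the named classes, in a cluster chosen after its values were seen. Cluster g14, 404 nuclei led by Slc6a20, Ranbp3l and Aldh1a2, was left unnamed because its nuclei were shallow, with a median of 782 UMIs, and no marker of the list it came closest to (fibroblasts) was among its 10 leading genes. Slc7a11 was there at 2261 and 1873 CPM in Sham, 4702 and 3288 in MCAO contra, and 4061 and 3845 in MCAO ipsi. The Sham libraries were the lowest, with 30 and 17 nuclei. A vascular-like cluster, g30, led by Col8a1 and Itga2, held 14 nuclei of mMCAO ipsi and 91 of sMCAO ipsi, with Slc7a11 at 1100 and 716 CPM.

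**Figure D5:**
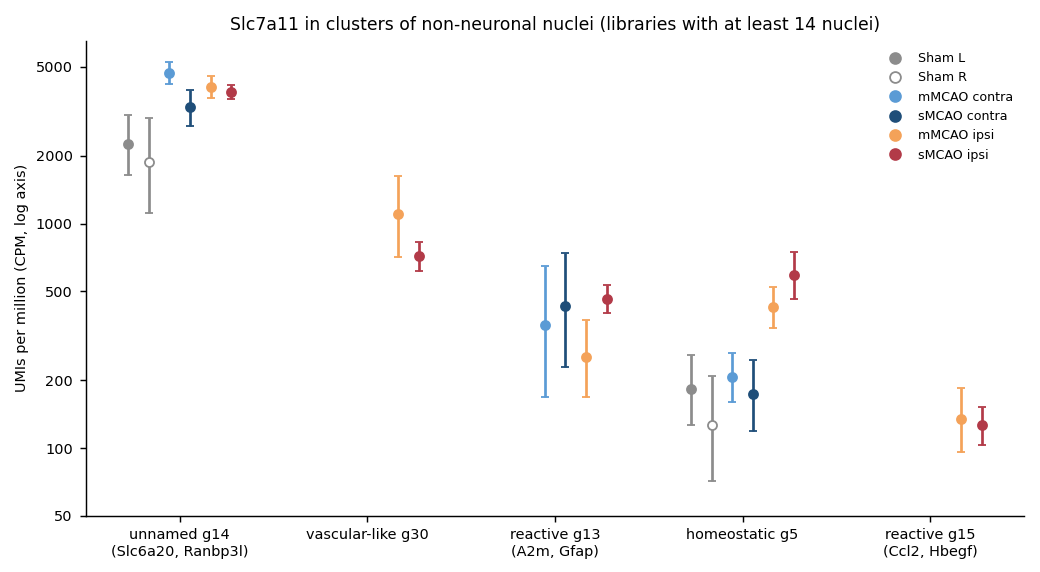
Slc7a11 in CPM (log axis) in 5 clusters of non-neuronal nuclei, 1 point for each library with at least 14 nuclei of the cluster and exact Poisson 95% intervals of counting error. Levels run from 126 CPM in reactive cluster g15 of sMCAO ipsi to 4702 CPM in unnamed cluster g14 of mMCAO contra.

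Across the classes the uptake carriers had different ranges over the 6 libraries. Slc1a2 ran from 3756 to 9510 CPM in astrocyte-like nuclei and from 125 to 272 in OPC-like nuclei, without overlap, and from 63.3 to 144 in glutamatergic and 45.0 to 68.2 in other GABAergic neuron-like nuclei, whose ranges overlapped. In ependymal-like nuclei it ran from 15.2 to 369 CPM, over the OPC-like range, with free RNA estimated at 3.2% to 72.4% of their UMIs. Among the classes fitted, Slc1a1 was highest in OPC-like nuclei, 288 to 347 CPM, above vascular-like nuclei at 62.2 to 172. The vascular-like range overlapped those of glutamatergic (86.7 to 117) and medium spiny neuron-like nuclei (84.9 to 105). The genes whose log2(CPM + 10) followed Slc1a2 most closely over 56 sums of class and library were ENSRNOG00000062419 (Pearson's r = 0.954), Gpc5 (0.937), Slc7a10 (0.919), Fgfr3 (0.919) and Cldn10 (0.918). Those closest to Glul were Csrp1 (0.916), Plaat3 (0.905), Notch2 (0.9), Arrdc3 (0.896) and Plod1 (0.889), and to Slc7a11 Gcnt4 (0.861), Fgd6 (0.828), Maob (0.824), Fam107a (0.814) and Sparcl1 (0.811). These correlations are descriptions, and the sums share libraries.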

How the data were processed

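The authors pooled nuclei of 3 or 4 rats per hemisphere, made 10x Genomics 5′ libraries, and counted UMIs with Cell Ranger 7.0.0 against mRatBN7.2, introns included. The deposited values are raw UMI counts per gene and nucleus for 6 libraries, without normalization. RNA is nuclear, and counts are shares of a nucleus's captured RNA, so total RNA per cell was not measured.

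Nuclei with at least 500 UMIs, 250 to 5000 genes and at most 5% mitochondrial UMIs were kept, and in each library the 5% with the highest simulated-doublet score were left out. Nuclei of all libraries were clustered together without batch integration (3000 variable genes, 30 principal components, 15 neighbours, Leiden resolution 1; leidenalg 0.10.2, igraph 0.11.9), with the 10 genes and the pathway lists kept out of the variable genes. Non-neuronal classes were named from marker lists, which needed 3 markers or more, averaging a log2 fold of 1.5, and a gap of 1 to the next class. Neuron clusters were named by other limits, on a medium spiny marker score and on the ratio of glutamatergic to GABAergic marker levels. These naming limits were set after clusters were seen, and the gate used as an alternative (at least 2 markers, neuron score at most 0.5) after its class sizes were seen. Listed genes that could not be matched by symbol are not analysed here, and some results on listed genes are not reported here.

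UMIs were summed per library and class. Classes with at least 20 nuclei in every library were fitted, apart from ependymal-like nuclei. The sums were tested with edgeR 4.0.16 (quasi-likelihood F test, TMM, filterByExpr, Benjamini-Hochberg over all genes of a class and comparison; R 4.3.3), with 3 groups of 2 libraries in 1 fit and 3 residual degrees of freedom. Calls needed an adjusted p under 0.05 together with a log2 fold change of 0.6 or more in size. SE is the fold change divided by the root of F. Ratios between single sums carry exact 95% intervals. The shares over all genes beside them cover genes with at least 10 UMIs, a limit not applied to the 10 genes. Intervals cover counting error only. Free RNA was estimated from neuron markers in glia and from glia markers in neurons. The scripts were tested on simulated data.

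Ipsi and contra libraries of 1 severity come from the same rats, per the labels, and their deviations correlated at r = 0.0565 in astrocyte-like and 0.0877 in glutamatergic sums. Alternatives were RLE scaling, DESeq2 1.42.0, no filter on low counts, only the 2 groups compared, the rat pool as replicate block, leaving out each library, doublets kept, Leiden resolution 2, gated nuclei and free RNA subtracted. The rule for named genes took all 10 genes, each pathway-list gene called in astrocyte-like nuclei (up to 15), and the 5 genes closest to Slc1a2, Glul and Slc7a11 among those with at least 200 UMIs. The genes, lists and tests were chosen with earlier results of these data known.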

Additional observations from a re-analysis of the deposited data

Results flagged for a closer look

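Differences between classes in the change from Sham to MCAO ipsi were each tested as an interaction with edgeR's quasi-likelihood test. They passed for 4 of the genes. Of all genes, 5.2% passed against oligodendrocyte-like and 8.39% against glutamatergic neuron-like nuclei. Slc38a1 differed between astrocyte-like and oligodendrocyte-like nuclei by 2.24 on the log2 scale, higher in the astrocyte-like ones. That call was lost with doublets kept and with free RNA subtracted. Between astrocyte-like and glutamatergic neuron-like nuclei, Slc3a2 differed by 1.38 and Slc38a1 by 1.28, both higher in astrocyte-like nuclei. Slc7a11 and Slc1a4 both had a difference of −1.08, lower in astrocyte-like nuclei. The astrocyte-like class includes reactive nuclei, whose share was larger in MCAO ipsi. Fewer genes passed against glutamatergic neuron-like nuclei with free RNA subtracted.

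A signal in nuclei that entered no comparison was that of Slc7a11 in the unnamed cluster g14, at 3855 CPM over all libraries and at 2261 and 1873 CPM in the Sham libraries. Its Slc1a3 level was 1353 to 1784 CPM.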

How the results depend on the processing

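With all libraries kept, counts of the 10 genes called depended on the processing mainly in oligodendrocyte-like, OPC-like, homeostatic and glutamatergic nuclei. Leaving out 1 library also moved the astrocyte-like counts widely, as given below. With RLE scaling all 27 counts stayed within 1.5 times. With DESeq2 3 genes were called in astrocyte-like nuclei (MCAO ipsi against MCAO contra), 0 in homeostatic (against MCAO contra), and, against Sham, 1 in oligodendrocyte-like nuclei and 0 in OPC-like nuclei. With only the 2 groups compared, 0 were called in homeostatic (against MCAO contra) and 0 in oligodendrocyte-like nuclei (against Sham). With no filter, 4 and 1 were called in oligodendrocyte-like nuclei (against Sham and MCAO contra), 1 and 2 in vascular-like, 2 in OPC-like, 2 in glutamatergic and 1 in other GABAergic nuclei (against MCAO contra). With doublets kept, the counts were 0 and 1 in oligodendrocyte-like, 0 in OPC-like nuclei and 0 for the interaction with oligodendrocyte-like nuclei. With Leiden resolution 2, 1 was called in oligodendrocyte-like (against Sham) and 1 in OPC-like nuclei (against MCAO contra). With gated nuclei, the counts were 3 and 2 in homeostatic, 0 in oligodendrocyte-like nuclei, 0 in OPC-like nuclei, 2 in glutamatergic (against MCAO contra), 1 in medium spiny and 1 in other GABAergic nuclei (against Sham) and 2 for the interaction with oligodendrocyte-like nuclei, Slc1a2 in OPC-like nuclei reversed to 0.254 (adjusted p = 0.678), and 1 gene was lower in reactive nuclei of both ipsi libraries. With free RNA subtracted, 0 and 0 were called in homeostatic, 0 in oligodendrocyte-like and 2 in glutamatergic nuclei (against MCAO contra), 0 for the interaction with oligodendrocyte-like and 2 for that with glutamatergic nuclei, and 68.9% of homeostatic calls over all genes were higher against Sham, in place of 35.6%. With the rat pool as replicate block, 2 were called in glutamatergic nuclei (Glul joining Slc7a11), and the block changed no other call count beyond 1.5 times. The cause of these shifts was not tested. The share of all genes called in each setting is not given here, so a general rise or fall in calls is not told apart.

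Leaving out 1 library each gave 2 to 8 (against Sham) and 1 to 6 (against MCAO contra) calls in astrocyte-like, 1 to 3 and 0 to 2 in homeostatic, 0 to 4 and 0 to 4 in oligodendrocyte-like, 0 to 2 and 0 to 2 in OPC-like, 0 to 4 and 0 to 3 in vascular-like, 0 to 5 and 1 to 3 in glutamatergic, 0 to 2 and 0 to 1 in medium spiny and 0 to 1 and 0 to 1 in other GABAergic nuclei. For MCAO contra against Sham it gave 0 to 2 in oligodendrocyte-like nuclei and 0 in the others. For the interactions it gave 0 to 3 (oligodendrocyte-like), 0 to 1 (OPC-like) and 1 to 6 (glutamatergic). Depth limits Slc1a1, Slc3a2 and Slc38a1 most in Sham, where astrocyte-like nuclei gave 0 to 17 UMIs of each per library.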
